A study of Homo sapiens with 6 samples.

Results

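The miRNAs described here are hsa-miR-324-3p, hsa-miR-1287-5p, hsa-miR-15a-3p, hsa-miR-375-3p, hsa-miR-335-5p and hsa-miR-101-3p (the prefix is left out from here on), which ferroptosis studies in other systems have reported as regulators of GPX4, SLC7A11, FTH1 or TBL1XR1. They were picked by name, though with earlier results of these data known. All 6 are among the 1596 mature miRNAs of the deposited count table. Small RNA was sequenced from human melanoma cells after 24 hours of RSL3 combined with IFN-γ (3 libraries) or of RSL3 alone (3 libraries). Both groups received the ferroptosis inducer RSL3, a GPX4 inhibitor, and by the labels they differed in IFN-γ, an inflammatory cytokine made by T cells and natural killer cells. Untreated cells were not analysed here. The sample labels give the line as A2058 whereas the methods of the study name A375, both established melanoma lines, and the dose of RSL3 that the study gives differs between those lines. Whether the replicates were separate cultures is not stated, so a p-value here sets a difference against the spread of these libraries, and that spread may be technical.

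Ferroptosis is a form of cell death driven by iron and by the build-up of oxidised membrane lipids. GPX4 uses glutathione to reduce lipid hydroperoxides, SLC7A11 imports the cystine from which glutathione is made, and FTH1, the heavy chain of ferritin, stores iron in a safe form. TBL1XR1 is a transcriptional co-regulator that acts on nuclear receptor, Wnt and NF-κB targets. A miRNA pairs through its seed, bases 2 to 8 from the 5′ end, with sites that lie mostly in the 3′ untranslated region of a messenger RNA and lowers the output of that RNA. Messenger RNAs and proteins of these targets were not measured in these libraries.

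The mature sequences are shown because the seed sets which sites each miRNA can pair with. They are given 5′ to 3′ from RefSeq on GRCh38.p14, with the seed in capitals.
miR-324-3p: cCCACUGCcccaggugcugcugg
miR-1287-5p: uGCUGGAUcagugguucgaguc
miR-15a-3p: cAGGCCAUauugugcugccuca
miR-375-3p: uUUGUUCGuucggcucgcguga
miR-335-5p: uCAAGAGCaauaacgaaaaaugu
miR-101-3p: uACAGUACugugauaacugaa
No seed was shared within the group, nor with any of the 1425 miRNAs of the table that had a RefSeq sequence, so no other miRNA with a sequence adds to the pool of any of these seeds. The GC content ran from 30.4% in miR-335-5p and 33.3% in miR-101-3p, through 54.5% in miR-1287-5p, miR-15a-3p and miR-375-3p, to 73.9% in miR-324-3p.

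The hairpins lie on 7 loci of GRCh38.p14, and their surroundings are those of GENCODE 29. MIR324 is on chromosome 17 (7223297 to 7223379, minus strand), opposite an intron of ACADVL, a mitochondrial acyl-CoA dehydrogenase. MIR1287 is on chromosome 10 (98395218 to 98395307, minus strand), inside PYROXD2 on the same strand, where at least 1 transcript has an exon over it. MIR15A is on chromosome 13 (50049119 to 50049201, minus strand), inside the non-coding gene DLEU2, again under an exon of at least 1 transcript. MIR375 is on chromosome 2 (219001645 to 219001708, minus strand) and overlaps no other annotated gene. MIR335 is on chromosome 7 (130496111 to 130496204, plus strand), in an intron of the imprinted gene MEST and opposite an exon of an antisense transcript. MiR-101-3p comes from a pair of hairpins, MIR101-1 on chromosome 1 (65058434 to 65058508, minus strand), which overlaps no other gene, and MIR101-2 on chromosome 9 (4850297 to 4850375, plus strand), in an intron of RCL1 and opposite an exon of an antisense transcript, so its reads cannot be assigned to one locus.

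The 3′ untranslated region of each reported target, taken from the protein-coding transcript of GENCODE 29 in which it is longest, was searched on the transcript strand for the letters that pair with the full seed. Such a match describes the sequence and is not evidence of a site in use. GPX4 (233 bases) held 1 match for miR-1287-5p (ATCCAGC), which 1.6% of first stretches of that length hold among 16605 genes. It also held 1 match for miR-15a-3p (ATGGCCT), which 1.7% of those stretches hold. Both windows are shown 5′ to 3′ because they are the full seed matches found in the group, with the matching letters in capitals.
miR-1287-5p in GPX4, GRCh38 chr19:1106667-1106688, plus strand: ggcagacccgaaaATCCAGCgt
miR-15a-3p in GPX4, GRCh38 chr19:1106699-1106720, plus strand: ggaggaaggtcccATGGCCTgc
The letters GCAGTGG for miR-324-3p (3.3% of stretches of the same length) were not found in the GPX4 window. Neither were GCTCTTG for miR-335-5p in FTH1 (442 bases; 3.3% of stretches of that length), CGAACAA for miR-375-3p in SLC7A11 (7859 bases; 4.7%) or GTACTGT for miR-101-3p in TBL1XR1 (6143 bases; 31.2%). The shorter match to bases 2 to 7 occurred 3 times in SLC7A11 for miR-375-3p (GAACAA, held by 84.7% of stretches of that length) and 5 times in TBL1XR1 for miR-101-3p (TACTGT, 84.2%). It was not found for miR-324-3p in GPX4 (CAGTGG, 10.6%) or for miR-335-5p in FTH1 (CTCTTG, 15.1%). Of the short matches, 2 in SLC7A11 and 2 in TBL1XR1 were followed by an A. How often other stretches hold that longer form was not counted. Sites outside these windows or with weaker pairing were not searched.

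The libraries held 4383940 to 5367150 counts with IFN-γ and 4897890 to 6513382 with RSL3 alone. Of the melanocyte and melanoma markers looked for, all 6 had reads in some library. Their summed level was 489 to 578 CPM (counts relative to the scaled library total) with IFN-γ and 577 to 744 CPM with RSL3 alone. Most of it was miR-211-5p and miR-204-5p. MiR-211-5p was higher with IFN-γ (log2 fold change 0.23, edgeR adjusted p = 0.564) in groups that overlapped. MiR-204-5p was lower (−0.75, edgeR adjusted p = 0.075), and neither passed. Of the melanoma cluster on the X chromosome, miR-508-3p was at 0 in every library with IFN-γ and at most 1.58 CPM with RSL3 alone. MiR-506-3p and miR-509-3p reached at most 0.171 and 0.683 CPM with IFN-γ, and 0.875 and 2.97 CPM with RSL3 alone. MiR-514a-3p fell to 14.5, 28.2 and 30.3 CPM with IFN-γ, against 65.3, 50.1 and 75.9 CPM with RSL3 alone. Its log2 fold change was −1.38 (edgeR adjusted p = 0.0374). The epithelial markers summed to 116 to 158 CPM with IFN-γ and 162 to 201 CPM with RSL3 alone, sums that did not overlap. Taken singly, each of these 6 markers had groups that overlapped, and none that was tested passed. MiR-205-5p among them went the other way, with a log2 fold change of 0.43. The part of these marker levels in the differences below was not tested. RSL3 replicate 3 stood apart in the muscle miRNAs (1333 CPM in sum, of which miR-1-3p was 1280 CPM), whereas the other RSL3 libraries had at most 220 CPM and those with IFN-γ 204 to 278 CPM. IFN-γ replicate 2 stood apart in its scaling factor (1.33, others 0.861 to 1.15). It had the highest sum of blood miRNAs, 331 CPM, of which miR-451a was 318 CPM. Of the others, miR-144-3p was highest there too (4.78 CPM). MiR-142-3p (3.76 CPM), miR-142-5p (4.44 CPM) and miR-223-3p (0.171 CPM) were not. This library also had the highest level of the liver miRNA miR-122-5p, 174 CPM.

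The members spanned a wide range of abundance, and only 4 of them were present at a level that could be tested. CPM here are scaled by edgeR's TMM factors, and 1 read covers a whole miRNA of 21 to 23 bases, so no length correction applies. MiR-101-3p, a miRNA better known as a repressor of EZH2, ranked 36 of 1596 by mean level. It was followed by miR-1287-5p at rank 124, miR-324-3p at 212, miR-375-3p at 340, miR-15a-3p at 944 and miR-335-5p at 1234. Down to miR-15a-3p every library of the higher neighbour lay above every library of the lower one. MiR-15a-3p and miR-335-5p overlapped in their levels, from 0 to 1.78 CPM in miR-15a-3p and from 0 to 0.725 CPM in miR-335-5p. MiR-101-3p alone gave 82.5% to 91.9% of the reads of the group in each library.

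**Figure D1:**
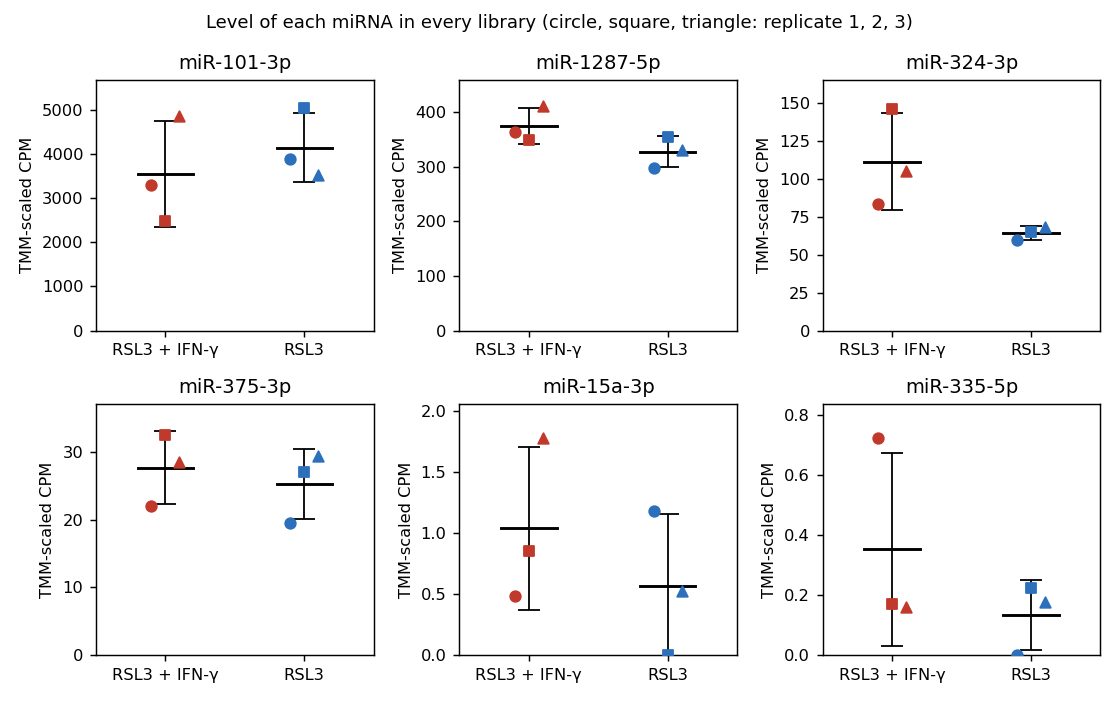
TMM-scaled CPM of each of the 6 miRNAs in every library, with RSL3 combined with IFN-γ in red and RSL3 alone in blue. Symbols mark the replicate number, bars the mean and whiskers 1 SD (n = 3 each). Only in miR-324-3p do all libraries with IFN-γ (83.3 to 146 CPM) lie above all those without it (59.4 to 68.1 CPM).

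None of the 4 tested members passed the test between the groups, and miR-324-3p came nearest to it. By edgeR's quasi-likelihood test with Benjamini-Hochberg adjustment over all 758 miRNAs kept by the filter on low counts, 0 of 4 had an adjusted p under 0.05, where 4.75% of all tested miRNAs did. One of the 4 had an unadjusted p under 0.05, where 25.9% of all did. DESeq2 called 1 of the 4, miR-324-3p, and limma-voom called 0, where 96 and 33 of all 758 passed. With the replicate number as a block the count by edgeR was again 0, where 10.8% of all passed. In 1 of the 4 every library with IFN-γ was higher than every library without it, and in 0 of the 4 every one was lower. Of all tested miRNAs, 29.8% had groups that did not overlap, in either direction. The median log2 fold change was 0.16 over the 4 and −0.04 over all tested.

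MiR-324-3p, reported as a direct repressor of GPX4 in lung and breast cancer cells, had 83.3, 146 and 105 CPM with IFN-γ, against 59.4, 65.1 and 68.1 CPM with RSL3 alone. All libraries with IFN-γ were higher than all without it, and they were also more scattered, with a coefficient of variation of 28.4% against 6.88%. The group means were 111 ± 31.6 and 64.2 ± 4.41 CPM (SD, n = 3 each). The log2 fold change was 0.80 (standard error 0.26, 95% interval 0.23 to 1.37), a fold of 1.74, with an adjusted p = 0.089 from edgeR's test. In bulk libraries, more cells that express a miRNA and more of it per cell cannot be told apart. By size, 12.7% of all tested miRNAs had a higher log2 fold change.

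This value depended on single libraries and on the handling of base composition. Without IFN-γ replicate 1 miR-324-3p passed edgeR's test at 0.96 (adjusted p = 0.0314), where 95 of all 815 tested miRNAs passed. IFN-γ replicate 2 was its highest library and the one set apart by its scaling factor and by a blood miRNA sum that was mostly miR-451a. Without it miR-324-3p did not pass (0.55, edgeR adjusted p = 0.272), as it did not with all libraries. There 6 of all 787 passed. The part of the blood and liver miRNAs of IFN-γ replicate 2 in the difference was not tested. MiR-324-3p also passed with library totals as the only scaling (1.21, edgeR adjusted p = 0.0458). There the median of all tested miRNAs lay at 0.33 and 71 of 758 passed. With DESeq2 it passed as well (0.83, adjusted p = 0.0397), where 96 of 758 did. With the trend of level on GC content removed in each library it was 0.26 (adjusted p = 0.535 from edgeR), or 0.27 with the replicate block as well (adjusted p = 0.519).

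Its other arm, miR-324-5p, showed a like pattern at a smaller size. It had 153, 175 and 145 CPM with IFN-γ, against 116, 116 and 106 CPM with RSL3 alone. These groups did not overlap either, and the log2 fold change was 0.48 (95% interval 0.01 to 0.96, adjusted p = 0.18 from edgeR's test). The 3p arm made up 35.3%, 45.5% and 42.1% of the reads of the hairpin with IFN-γ and 33.9%, 36.0% and 39.2% with RSL3 alone. The log2 ratio of 3p to 5p reads differed by 0.28 between the groups (95% interval −0.51 to 1.06, adjusted p = 0.674 by limma over 181 hairpins, of which 0% passed), within the spread between replicates. The interval leaves room for a shift of arm balance toward either arm.

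MiR-1287-5p, reported to bind the GPX4 message in osteosarcoma cells, was the steadiest member. It had 363, 349 and 412 CPM with IFN-γ, against 298, 354 and 331 CPM with RSL3 alone. The groups overlapped, and the highest library was 1.38 times the lowest. The median of that ratio over all tested miRNAs was 2.50, which takes in sparse miRNAs and is not matched for level. The log2 fold change was 0.19 (standard error 0.21, adjusted p = 0.618 from edgeR's test). Its 95% interval ran from −0.28 to 0.66, that is from 0.83-fold to 1.58-fold.

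The other arm, miR-1287-3p, was sparse, with 3, 16 and 7 reads with IFN-γ, against 24, 7 and 27 reads with RSL3 alone. Its log2 fold change was −1.23 (95% interval −2.65 to 0.16, adjusted p = 0.244 from edgeR's test). The 3p arm was therefore a minor product of the hairpin in either group, at 0.199%, 0.777% and 0.273% of its reads with IFN-γ and 1.56%, 0.440% and 1.41% with RSL3 alone. The log2 ratio of 3p to 5p reads was lower by a difference of −1.45 with IFN-γ (95% interval −2.88 to −0.01, adjusted p = 0.249 by limma), which did not pass, and the replicate 2 library of each group lay closer to the opposite group.

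MiR-15a-3p, the third reported repressor of GPX4, described in colorectal cancer cells, was hardly detected. It had 2, 5 and 11 reads with IFN-γ, against 6, 0 and 3 reads with RSL3 alone. It did not reach the filter of the test. Pooled over libraries and scaled for depth, the 18 and 9 reads gave a ratio of 1.89 with an exact 95% interval of 0.805 to 4.77, which covers counting error only and includes equality. The count of 0 in RSL3 replicate 2 allows a level of up to 0.671 CPM (3 reads).

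The opposite arm of this hairpin, miR-15a-5p, carries the seed of the miR-15 and miR-16 family and made up nearly all of its reads. It had 68.4, 62.8 and 72.0 CPM with IFN-γ, against 99.6, 78.5 and 65.6 CPM with RSL3 alone. The groups overlapped, and the log2 fold change was −0.26 (95% interval −0.79 to 0.27, adjusted p = 0.528 from edgeR's test). The 3p share of the hairpin was 0.702%, 1.34% and 2.41% with IFN-γ, and 1.17%, 0% and 0.794% with RSL3 alone. MiR-16-5p, which is made from the neighbouring hairpin of the same transcript and from another locus, averaged 487 ± 54.9 CPM with IFN-γ and 698 ± 174 CPM with RSL3 alone (SD, n = 3 each). Its difference of −0.52 on the log2 scale did not pass (adjusted p = 0.224 from edgeR).

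MiR-375-3p, an abundant miRNA of pancreatic islets and neuroendocrine cells that was reported to act on SLC7A11 in gastric cancer, was present at a low level in these melanoma cells. It had 22.0, 32.6 and 28.6 CPM with IFN-γ, against 19.5, 27.1 and 29.4 CPM with RSL3 alone. The groups overlapped almost entirely. The log2 fold change was 0.13 (standard error 0.28, adjusted p = 0.794 from edgeR's test), and the 95% interval of −0.48 to 0.75 leaves room for 0.71-fold to 1.68-fold. In both groups replicate 1 was the lowest library, and without RSL3 replicate 1 or without IFN-γ replicate 2 the sign turned, at −0.02 and −0.01. Its other arm, miR-375-5p, has no row in the table and was not analysed here.

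MiR-335-5p, reported to act on ferritin heavy chain FTH1 in models of Parkinson disease, was at the limit of detection. It had 3, 1 and 1 reads with IFN-γ, against 0, 1 and 1 reads with RSL3 alone. The ratio of the pooled 5 and 2 reads was 2.36, with an exact 95% interval of 0.386 to 24.8, so no difference was detectable at this depth. The 0 in RSL3 replicate 1 allows up to 0.592 CPM. More reads came from the other arm, miR-335-3p, with 4, 3 and 9 with IFN-γ, against 6, 3 and 7 with RSL3 alone. The pooled ratio of that arm was 0.943 (16 reads in each group, exact 95% interval 0.442 to 2.02).

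MiR-101-3p, reported to act on TBL1XR1 in lung cancer cells, was the most abundant member and the one whose direction depended on the scaling. It had 3293, 2492 and 4866 CPM with IFN-γ, against 3877, 5032 and 3531 CPM with RSL3 alone. The groups overlapped, with IFN-γ replicate 3 above 2 of the RSL3 libraries. The means were 3550 ± 1208 and 4147 ± 786 CPM (SD, n = 3 each), and the log2 fold change was −0.22 (standard error 0.28, 95% interval −0.85 to 0.40, adjusted p = 0.661 from edgeR's test). With library totals only it was 0.13, and with the GC trend removed 0.30, neither of which passed. Relative to the median of all tested miRNAs it lay at −0.21 to −0.19 under each of the TMM, library total, upper-quartile and RLE scalings. The 5p arms, which tell the hairpins apart, were nearly absent. MiR-101-5p of MIR101-1 had 2 reads in all with IFN-γ and 4 with RSL3 alone, and miR-101-2-5p of MIR101-2 had 5 reads, all of them in IFN-γ replicate 1, against 0.

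**Figure D2:**
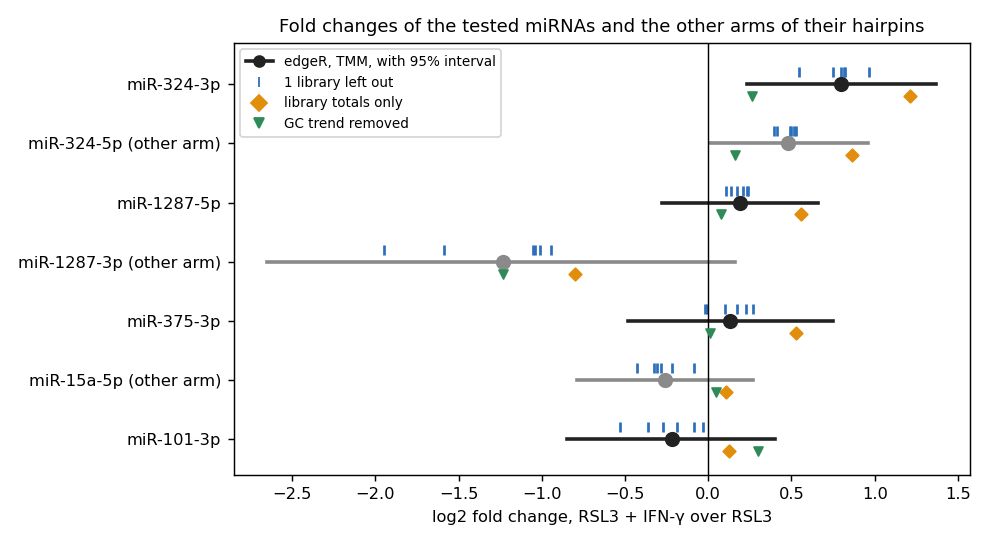
Log2 fold changes (RSL3 combined with IFN-γ over RSL3) of the 4 tested members (black) and of 3 other arms of hairpins of the group (grey), with 95% intervals from edgeR. Blue ticks leave out 1 library each, orange diamonds use library totals only and green triangles remove the GC trend. MiR-324-3p lies at 0.80, and at 0.26 with the GC trend removed.

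The fold changes of the 4 tested members followed the order of their GC content, a trend that ran through the whole table. Across the 679 tested miRNAs with a sequence, which share libraries and are not independent, the Spearman correlation of GC content with log2 fold change was 0.469. The median log2 fold change was 0.55 over the 24 tested miRNAs with at least the GC content of miR-324-3p, 0.15 over the 232 at 50% to 60%, where miR-1287-5p and miR-375-3p lie, and −0.89 over the 56 with at most that of miR-101-3p. MiR-324-3p, at 0.80, thus lay near its neighbours in composition, and miR-101-3p, at −0.22, lay above its own.

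Across libraries the correlations between members were of either sign, and they were not tested. Over the 6 libraries, the Pearson correlation of log2 CPM was 0.546 between miR-324-3p and miR-1287-5p and 0.639 between miR-324-3p and miR-375-3p. It was 0.463 between miR-1287-5p and miR-375-3p, and with miR-101-3p it was −0.535 for miR-324-3p, 0.289 for miR-1287-5p and −0.204 for miR-375-3p. Out of 757 other tested miRNAs, the 3 most like miR-324-3p were miR-147b-3p (0.976), miR-7977 (0.975) and miR-5100 (0.971). Those most like miR-1287-5p were miR-4435 (0.963), miR-1908-5p (0.963) and miR-17-3p (0.945). For miR-375-3p they were miR-3620-3p (0.967), miR-4745-3p (0.902) and miR-4725-3p (0.902), and for miR-101-3p miR-675-3p (0.980), miR-9901 (0.973) and miR-589-3p (0.939). These are the highest of many correlations over few libraries and are given as a description.

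Beside the 6, a list of 26 other miRNAs reported in ferroptosis, or its iron and glutathione metabolism, was read from the same test. MiR-21-3p, miR-7-5p and miR-9-5p passed it, though not under every setting. The list was chosen with earlier results of these data known. The study had itself taken these 3 among its candidates from this sequencing and followed them by qRT-PCR. The counts of the list therefore cannot be weighed against the shares of all tested miRNAs, which are given for scale. Of the 20 that were tested, 1 rose and 2 fell, where 2.51% of all tested miRNAs rose and 2.24% fell; 17 did not pass. That split over all miRNAs, 19 higher and 17 lower, depends on the scaling, with 60 higher and 11 lower by library totals only, and 15 higher and 24 lower by upper-quartile factors. The median log2 fold change of the 20 was −0.28. MiR-21-3p, which the study examined as a repressor of TXNRD1, rose to 2617, 2435 and 2713 CPM with IFN-γ, against 1053, 1426 and 1324 CPM with RSL3 alone (log2 fold change 1.03, adjusted p = 0.0316 from edgeR). MiR-7-5p, reported to act on the mitochondrial iron importer SLC25A37, fell to 17892, 4029 and 6159 CPM with IFN-γ, against 43721, 38399 and 47220 CPM with RSL3 alone (−2.20, adjusted p = 0.0316 from edgeR). MiR-9-5p, reported to act on GOT1 in melanoma, fell to 2244, 1657 and 2266 CPM with IFN-γ, against 4649, 3755 and 10542 CPM with RSL3 alone (−1.62, adjusted p = 0.0363 from edgeR). Of the 20, the groups did not overlap in 1 that was higher and 6 that were lower, these 3 among them. Of all tested miRNAs, 29.8% had groups that did not overlap in either direction. With upper-quartile factors miR-21-3p no longer passed (0.93, edgeR adjusted p = 0.0504) and miR-17-5p did, which left 0 higher and 3 lower. With the GC trend removed miR-9-5p no longer passed (−1.05, edgeR adjusted p = 0.0912). With that and the replicate block neither miR-9-5p (−0.93, adjusted p = 0.119) nor miR-7-5p (−1.91, adjusted p = 0.0632) passed, while miR-21-3p (1.05, adjusted p = 0.0451) and miR-17-5p did.

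With the replicate block 1 of the 20 rose and 5 fell, adding miR-17-5p (log2 fold change −0.98), miR-103a-3p (−0.83) and miR-20a-5p (−1.25), where 5.15% of all tested miRNAs rose and 5.67% fell. By edgeR 0 of the list were called without RSL3 replicate 1, without IFN-γ replicate 2 or without IFN-γ replicate 3. Of all tested miRNAs 0 of 810, 6 of 787 and 7 of 782 were called there. At an unadjusted p under 0.05 the list had 7, 8 and 8, and all miRNAs 124, 141 and 172. Leaving out RSL3 replicate 3 left 1 of the list, RSL3 replicate 2 gave 5 and IFN-γ replicate 1 gave 6. Over all miRNAs these settings gave 22 of 805, 55 of 816 and 95 of 815. With all libraries DESeq2 called 6 of the list, where 96 of 758 passed. The most abundant members of the list were miR-148a-3p, reported to act on the transferrin receptor, miR-7-5p, and miR-378a-3p, reported to act on SLC7A11. MiR-148a-3p had a log2 fold change of −0.58 (edgeR adjusted p = 0.179) and miR-378a-3p of 0.43 (adjusted p = 0.306), and neither passed. MiR-27a-3p, also reported for SLC7A11, had 0.79 (edgeR adjusted p = 0.198), and miR-182-5p, reported for GPX4, had −0.02 (adjusted p = 0.969), so they did not pass either.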

How the data were processed

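Small RNA libraries of 3 replicates per group were analysed, grouped by the treatment in the sample labels. The authors' deposited table gives raw read counts per mature miRNA, together with a normalized signal per library and, for the authors' own comparison, a log2 fold change, a fold (ratio) and a p-value; only the counts were used. The submitters' processing notes name GRCh38, Bowtie 1.1.1, bcl2fastq and edgeR. The miRNA reference and the counting of reads that fit several miRNAs were not given in the sources used here. MiRNAs were compared by edgeR 4.0.16's quasi-likelihood test in R 4.3.3 (two-sided, TMM factors, minimum count 10, minimum total 15), which left 758 of 1596. Calls had a Benjamini-Hochberg adjusted p under 0.05. Arm ratios, with 0.5 reads added to each arm, were tested with limma 3.58.1 on those hairpins whose arms both averaged 10 reads or more. Intervals are 95%. DESeq2 1.42.0, limma-voom, other scalings and filters, a loess trend on GC content and leaving out each library were the alternatives. Tests were also run on simulated counts, the outcome of which is not given here.

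Centred on their group means, libraries of the same number correlated at 0.227, 0.217 and 0.207, above the 0.1 taken as pairing, although the labels do not say what the numbers stand for; the blocked value is given where it changes a count. Any pair of libraries differed by more than counting noise (lowest chi-square over degrees of freedom 148). Members and lists were chosen with earlier results of these data known. Named are the members, the other arms of their hairpins, their 3 closest miRNAs by correlation over the 6 libraries (log2 CPM, prior count 2), cell type markers, and of the list those called or most abundant; miR-16-5p, miR-27a-3p and miR-182-5p were added after their values were seen. RefSeq sequences matched 1425 of 1596 names (89.3%), all 6 members among them.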

Additional observations from a re-analysis of the deposited data

How the results depend on the processing

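The log2 fold change of miR-1287-5p kept its sign and stayed short of the threshold under all 16 alternatives (0.07 to 0.56), as did miR-324-5p (0.16 to 0.87), and miR-1287-3p under all 15 that could be run (−1.95 to −0.80). MiR-324-3p kept its sign under all 16 (0.26 to 1.21) and passed with library totals only (1.21), DESeq2 (0.829) and without IFN-γ replicate 1, with 0.55 to 0.96 over the libraries left out. MiR-375-3p turned its sign without RSL3 replicate 1 (−0.0174) and without IFN-γ replicate 2 (−0.00742), within −0.0174 to 0.268 over the libraries left out. MiR-101-3p turned to 0.126 with library totals only, 0.296 with the GC trend removed and 0.337 with that and the replicate block, and miR-15a-5p to 0.105, 0.0447 and 0.0645; no such value passed. The arm ratio of miR-324 ran from 0.14 to 0.45 over 9 alternatives and that of miR-1287 from −2.01 to −1.09 over 8, none past the threshold; the hairpin of miR-1287 is not kept at a mean of 50 reads. Without a filter, miR-15a-3p had 0.83 (adjusted p = 0.805 from edgeR) and miR-335-5p 1.24 (adjusted p = 0.826).

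Calls over all miRNAs numbered 36. There were 71 with library totals only (60 higher, 11 lower) and 39 with upper-quartile factors (15 higher, 24 lower). They numbered 106 without a filter, 49 at a mean of at least 10 CPM, 96 with DESeq2 and 82 with the replicate block. With the GC trend removed 31 were called, and 23 with the block as well. With a library left out they ran from 0 to 95 (0, with 124 at an unadjusted p under 0.05, without RSL3 replicate 1). In the list of other ferroptosis miRNAs 3 were called, and 7 without a filter, 5 at a mean of at least 10 CPM, 6 with DESeq2, 6 with the replicate block, 2 with the GC trend removed, with or without the block, and 0 to 6 with a library left out. Upper-quartile factors also gave 3, but 0 higher and 3 lower in place of 1 and 2. The block changed the call of no member. The causes were not tested. Depth limits miR-15a-3p and miR-335-5p, with at most 11 reads in a library.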
